A study of Bos taurus with 9 samples.

Results

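The cell cycle and mitosis genes described here are 88 of the 9155 genes named by a single symbol on an Affymetrix bovine expression array. They were taken by gene symbol, from the families MCM, CDC, CDK, cyclins (CCN and 1 further letter), AURK, BUB, CENP and KIF together with RRM1 and RRM2, leaving out CDC42 genes. Among 24016 probe sets tested, 126 carried a single symbol of these families. Where a gene had several, the probe set with the highest mean over the 9 arrays stood for it, so that 57 members rested on their only probe set and 31 on 1 of several. The rule reads symbols and mean levels, and the members were chosen with earlier results of these data known.

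The members were measured in co-cultured stromal and epithelial cells of bovine endometrium, the lining of the uterus, with 1 array per sample and 3 samples per group. The LPA+IFNt group received lysophosphatidic acid (LPA) at 1e-06 M and interferon tau (IFNt) at 1000 antiviral units in an unstated volume, the LPA group LPA alone at the same concentration, and the control group phosphate-buffered saline, each for 6 h. LPA is a lipid that signals through receptors at the cell surface, and IFNt is the protein by which the ruminant conceptus announces pregnancy to the mother. All groups shared the source of the cells, Holstein/Polish Black and White cows slaughtered on days 2 to 5 of the oestrous cycle, the seeding of 3 stromal cells to 1 epithelial cell, and a change from serum to a medium with 0.1% bovine serum albumin before treatment. RNA of 3 cows was pooled for each array, and with 9 cows in all the pools must share animals. A group given IFNt alone was not analysed here.

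As background, a cell that divides passes through ordered phases driven by cyclin-dependent kinases (CDKs) bound to cyclins. D-type cyclins with CDK4 act in G1, cyclin E and cyclin A with CDK2 around DNA synthesis, and cyclin B with CDK1 at entry into mitosis. In S phase the MCM helicase opens DNA, and in mitosis kinetochores built on centromeres attach chromosomes to the spindle while the BUB proteins hold back the anaphase-promoting complex (APC/C) until attachment is complete. Many of the mitotic genes are transcribed mainly in cells that cycle.

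A symbol of these families does not make a gene a cell cycle gene. By known function, 51 members fell into cell cycle roles. Of these, 10 act in DNA replication, 14 are cyclins, CDKs or CDC25 of the cycle, 9 belong to the spindle checkpoint, mitotic kinases and APC/C, 11 to the centromere and kinetochore and 7 are mitotic kinesins. The other 37 were 9 transport and ciliary kinesins, 12 cyclins, CDKs and CDC genes of transcription and splicing, and 16 genes with other functions. MCM2, CDK6, CDC25B, CENPE and KIF11, which the symbol rule would also take, were not analysed here.

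The values are log2 expression values after RMA, and array medians lay between 4.298 and 4.377. On all 9 arrays 82 members exceeded 2.80, the highest value of the bacterial trp control probe sets, which have no target in cow RNA. CDK3, CENPA, KIF18A, CCNT1 and KIF5C did so on no array, and CDK18 on 8 of 9. Markers of the labelled cell types were detected, as 13 of 13 measured stromal and 14 of 14 measured epithelial genes exceeded that value on every array. That is a low bar, since 15696 of the 24016 probe sets tested had a mean above 2.67, the highest mean of a trp probe set. None of 8 endothelial or 5 red blood cell markers exceeded 2.80 on every array, and 4 of 14 leukocyte markers did. Smooth muscle and pericyte markers averaged 6.73 to 7.36 on the arrays, so these counts do not single out the labelled cell types. LPA replicate 3 stood apart in the members. Among the 48 members with cell cycle roles that exceeded the trp value on every array, it held the lowest of the 9 values for 30, and control replicate 1 held the highest for 22. The samples with the same replicate number deviated together, so results of the members are also given with that number as a block where it changed a call, and those of other lists as counts with the block.

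The first question was whether LPA alone moved these genes. None of the 88 members passed the adjusted threshold of 0.05 in LPA against control by limma, with or without the replicate block, where 0.0708% of all probe sets tested did. The percentage with the block was 0.0458%. Without adjustment, 3 members were higher and 17 lower at p under 0.05, which is 22.7% of members, against 8.3% of all probe sets tested (4.43% higher and 3.86% lower). With the replicate block 33 passed unadjusted, 30 of them lower, against 12.9% of all probe sets (6.73% lower). The smallest adjusted p among the members was 0.13, for CDK16. The median log2 difference of the members, LPA minus control, was -0.089, with 66 of 88 below 0, against a median of 0.0023 over all probe sets tested. Over the probe sets with a mean above 2.67 the median was -0.0024. Of these, 51.1% were below 0 and 5.82% were lower at unadjusted p under 0.05.

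The negative differences were larger in the genes of the cell cycle, a contrast between role groups that was described and not tested. In the 51 members with cell cycle roles the median difference was -0.22 and 42 were below 0. In the 37 members with other roles it was -0.027, and this small value turned to 0.0066 when arrays were centred on spike-in controls. The DNA replication members among the 51 were an exception, with a median, given below, near that of the 37. Of the 51, 13 (25.5%) had every LPA array below every control array and 0 had every LPA array above, where 4.91% and 5.13% of all probe sets tested did. In RNA of mixed cultures, fewer cells of a kind and less RNA per cell cannot be told apart.

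The size of this shift depended much on 1 array, although replicate number 1 alone also gave a shift. The median deviation of the 51 genes from their own means was -0.057, 0.052 and -0.21 on LPA replicates 1, 2 and 3, against 0.12, 0.058 and 0.032 on control replicates 1, 2 and 3. LPA replicate 2 therefore lay among the controls and replicate 3 far below them. Within replicate numbers 1, 2 and 3 the median difference of LPA from control was -0.25, -0.046 and -0.31. Of the 51 genes, 41, 32 and 45 were below 0 there. Without LPA replicate 3, but with control replicate 3 kept, as in every such fit below, the median difference was -0.081. In that fit 39 of 51 genes were still below 0. There 5 were lower at unadjusted p under 0.05, a count whose share over all probe sets is not given here. The median standard deviation of these genes was 0.18 among LPA arrays, against 0.086 among control arrays, while for the other 37 members it was 0.11 in both groups.

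**Figure D1:**
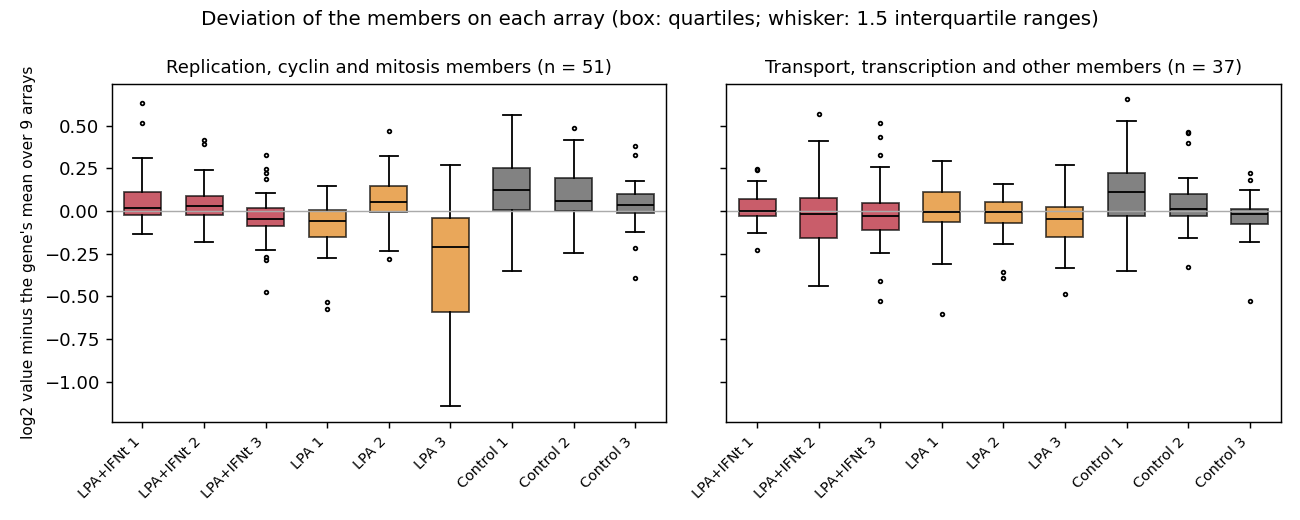
Each box shows, for 1 array, the log2 value of the members minus each gene's mean over the 9 arrays (y axis, log2 units), for the 51 members with cell cycle roles on the left and the other 37 on the right. Boxes span the quartiles with the median as a line, whiskers reach 1.5 interquartile ranges and circles are genes beyond them. The median of LPA replicate 3 on the left, -0.21, lies below those of the other 8 arrays.

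LPA+IFNt was then set against control, and 4 of 88 members (4.55%) passed, where 5.34% of all probe sets tested did. CDC40 and KIF27 rose, and RRM1 and CENPX fell, where 2.48% of all probe sets were called higher and 2.86% lower. With the replicate block 8 members (3 higher and 5 lower) passed, against 8.68% of all probe sets (3.24% higher and 5.44% lower). The median log2 difference of all members was -0.060, against 0.018 over all probe sets, and 59 were below 0. Over the probe sets with a mean above 2.67, a frame nearer the members in brightness, the median was also negative, -0.028. Of these, 56.7% were below 0 and 8.11% passed. The members' median was 0.0016 when arrays were centred on spike-in controls, against 0.079 over all probe sets. In the cell cycle roles the median was -0.078 with 38 of 51 below 0 (-0.016 and 27 with spike-in centring). Of the 51, 15 (29.4%) had every LPA+IFNt array below every control array, where 12.8% of all probe sets tested did. That share among the brighter probe sets is not given here.

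LPA+IFNt against LPA shares its LPA arrays with the first comparison. Here 3 members (3.41%), KIF27, CDK12 and CDC37, rose and 0 fell, where 6.54% of all probe sets tested passed and 2.56% were called higher. With the replicate block 6 members passed, 4 higher and 2 lower, against 9.66% of all probe sets (3.38% higher and 6.28% lower). The members' median difference was 0.040, against 0.019 over all probe sets, and 55 of 88 were above 0. Over the probe sets with a mean above 2.67 the median was -0.015, with 53.4% below 0. In the 51 cell cycle genes the median was 0.087 with 38 above 0, 0 of them called and 6 higher at unadjusted p under 0.05, where 5.98% of all probe sets were. Without LPA replicate 2, 8 members were called, 7 higher and 1 lower, a count whose share over all probe sets is not given here. Without LPA replicate 3 that median was 0.0024 and the members' median was -0.00064. A test of any difference among the 3 groups called 3 members, CDC40, KIF27 and CDK16, and 8 with the replicate block, where 5.99% and 9.48% of all probe sets passed. With the block it kept CDC40 and KIF27 and added RRM1 (adjusted p = 0.016), CENPX (0.020), MCM3 (0.032), CENPP (0.033), CCND1 (0.042) and CCND2 (0.042). Without LPA replicate 2 the test called 9, again with no share over all probe sets given here.

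**Figure D2:**
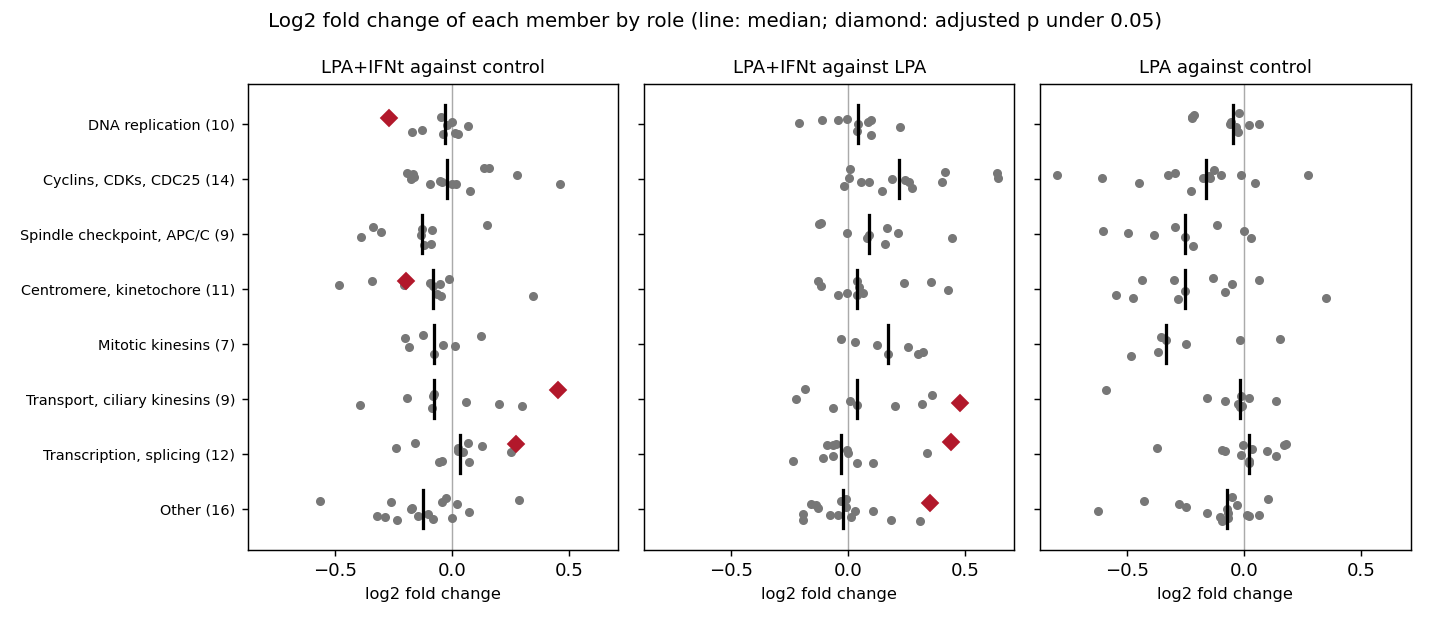
Each point is 1 of the 88 members, placed by its log2 fold change (x axis) in LPA+IFNt against control, LPA+IFNt against LPA and LPA against control, in rows by role with the number of members in brackets. Vertical bars are medians of a role and red diamonds mark adjusted p under 0.05. In LPA against control the medians of the spindle checkpoint, centromere and mitotic kinesin rows lie at -0.25, -0.25 and -0.33, and no diamond is drawn.

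Among the 10 DNA replication members, RRM1 fell in LPA+IFNt against control and the others did not pass. RRM1 encodes the large subunit of ribonucleotide reductase, the enzyme that makes deoxynucleotides for DNA synthesis. It read 11.29, 11.32 and 11.20 on the LPA+IFNt arrays, 11.57, 11.48 and 11.38 on the LPA arrays and 11.57, 11.54 and 11.49 on the control arrays. The 3 LPA+IFNt arrays were the lowest of the 9. The difference from control was -0.27 (SE 0.055, adjusted p = 0.034, and 0.0096 with the replicate block), a 1.2-fold lower level. Against LPA it was -0.21 (adjusted p = 0.076), which passed with the block (adjusted p = 0.020). The call against control was kept under 7 of 15 alternative settings, 9 of which leave out 1 array, with adjusted p between 0.0096 and 0.461. It was lost without any 1 control or LPA+IFNt array, without LPA replicate 2 and with spike-in centring.

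RRM2, the small subunit of the same enzyme, averaged 13.12 ± 0.052 on LPA+IFNt arrays, 13.09 ± 0.13 on LPA arrays and 13.11 ± 0.034 on control arrays (SD, n = 3 each). None of its differences exceeded 0.04 in size.

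The MCM genes encode subunits of the helicase that unwinds DNA at replication forks. MCM3 read 10.35, 10.22 and 10.33 on LPA+IFNt arrays, 10.11, 9.99 and 10.13 on LPA arrays and 10.42, 10.22 and 10.26 on control arrays. All LPA arrays lay below all others. The difference of LPA+IFNt from LPA was 0.22 (SE 0.064, adjusted p = 0.10), which passed with the replicate block (adjusted p = 0.025), and that of LPA from control was -0.22 (adjusted p = 0.36). MCM7 differed by -0.22 in LPA against control (adjusted p = 0.505) and by -0.17 in LPA+IFNt against control (adjusted p = 0.32). MCM4 and MCM5 had differences between -0.06 and 0.10 in the 3 comparisons, and no adjusted p below 0.506.

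The probe sets of MCM6 disagreed. The brighter, which stood for the gene, differed by 0.022 in LPA against control and by -0.044 in LPA+IFNt against LPA. The other averaged 8.96 on LPA+IFNt arrays, 9.41 on LPA arrays and 8.96 on control arrays, lower in LPA+IFNt than in LPA by a log2 difference of -0.45 (adjusted p = 0.010, and 0.028 with the block). With its probe sets averaged the gene was lower in that comparison, by -0.25 (adjusted p = 0.028). CDC6 and CDC45, which load and activate that helicase, had no adjusted p below 0.517. Over the 10 genes the median difference was -0.031 in LPA+IFNt against control (0.031 with spike-in centring), 0.041 in LPA+IFNt against LPA (-0.00064 without LPA replicate 3) and -0.046 in LPA against control.

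**Figure D3:**
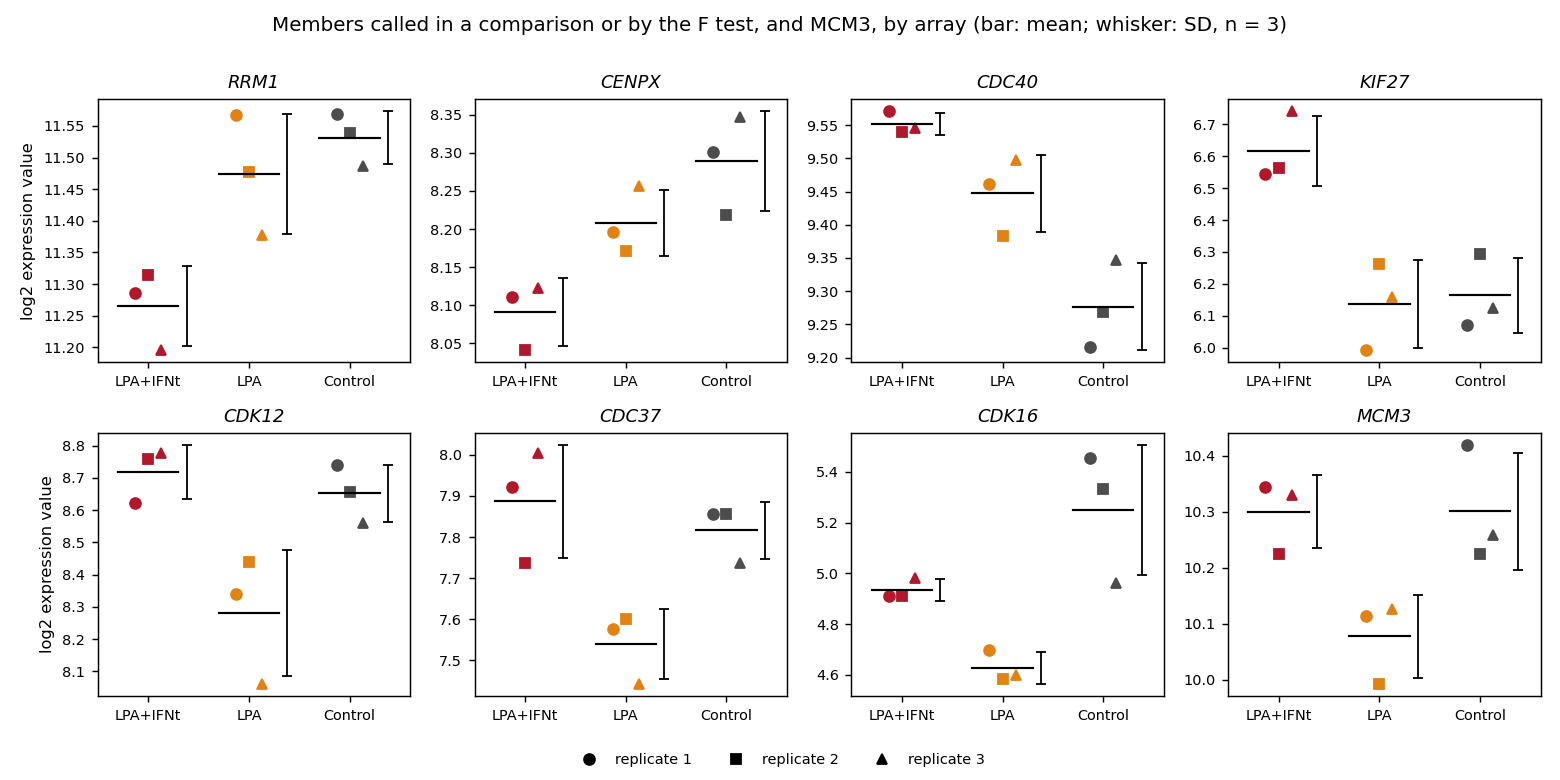
Log2 expression values (y axis, its range set for each gene) of the 7 members called in a comparison or in the test over all groups, and of MCM3, on the LPA+IFNt, LPA and control arrays. Circles, squares and triangles are replicates 1, 2 and 3, horizontal bars are means and whiskers are SD (n = 3). RRM1 and CENPX are lowest on the LPA+IFNt arrays, KIF27 and CDC40 are highest there, and CDK12, CDC37 and MCM3 are lowest on the LPA arrays.

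None of the 14 cyclins, CDKs and CDC25 genes of the cell cycle passed in any of the 3 comparisons with all 9 arrays and no block, although some of the widest differences lay here. CCND1, a D-type cyclin that drives G1 with CDK4, read 7.22, 6.84 and 6.55 on LPA+IFNt arrays, 6.51, 6.62 and 5.57 on LPA arrays and 7.28, 7.20 and 6.62 on control arrays. LPA arrays lay below control arrays, but LPA replicate 2 and control replicate 3 both read 6.62 to 2 decimals. The difference of LPA from control was -0.80 (SE 0.32, adjusted p = 0.56), the most negative of the 88 in that comparison. That of LPA+IFNt from LPA was 0.64 (adjusted p = 0.38), which passed with the replicate block (adjusted p = 0.048).

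CCND2, its close relative, behaved alike in order of the groups. It read 8.44, 8.27 and 8.19 on LPA+IFNt arrays, 8.07, 8.05 and 7.53 on LPA arrays and 8.77, 8.38 and 8.32 on control arrays. No LPA array reached the level of any other array. The difference was -0.61 in LPA against control (SE 0.17, adjusted p = 0.37) and 0.41 in LPA+IFNt against LPA (adjusted p = 0.27). In the test over the 3 groups CCND2 passed with the block alone (adjusted p = 0.19, and 0.042 with it). CDK4, the kinase partner of both, differed by -0.15 in LPA against control (SE 0.044, adjusted p = 0.39), with all LPA arrays below all control arrays.

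CDC25C, a phosphatase that activates CDK1 at the entry to mitosis, was higher on every LPA+IFNt array than on any other. It read 7.28, 6.88 and 6.90 on LPA+IFNt arrays, 6.38, 6.70 and 6.06 on LPA arrays and 6.65, 6.49 and 6.53 on control arrays. The LPA and control arrays overlapped. The difference was 0.64 against LPA (SE 0.17, adjusted p = 0.080, and 0.069 with the block) and 0.46 against control (adjusted p = 0.22), and neither passed with all 9 arrays. That against LPA passed without LPA replicate 2 (adjusted p = 0.023), and also with dim probe sets left out, spike-in centring or the intensity trend (lowest adjusted p = 0.014).

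The mitotic cyclins and CDK1 shared the low LPA replicate 3. CCNB1, cyclin B1, read 11.59, 11.63 and 11.24 on LPA+IFNt arrays, 11.23, 11.77 and 10.63 on LPA arrays and 11.55, 11.87 and 11.56 on control arrays. LPA replicate 2 exceeded 2 of the 3 control arrays, so the groups overlapped, and the difference of LPA from control was -0.45 (SE 0.27, adjusted p = 0.78). CDK1 read 12.19, 12.22 and 12.08 on LPA+IFNt arrays, 11.84, 12.12 and 11.33 on LPA arrays and 12.13, 12.13 and 12.01 on control arrays. Its LPA mean was pulled down by replicates 1 and 3, with a difference of -0.32 from control (adjusted p = 0.73). CCNB2 and CCNA2 differed by -0.30 and -0.23 in LPA against control, with adjusted p of 0.79 and 0.84.

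Of the genes of the G1/S step, CCNE2 and CDK2 were not lowest on LPA replicate 3, while CCNE1 was. CCNE2, a cyclin E, averaged 9.61 ± 0.26 on LPA+IFNt arrays, 9.61 ± 0.22 on LPA arrays and 9.34 ± 0.13 on control arrays (SD, n = 3 each), and its arrays overlapped between groups. CCNE1 had differences between -0.13 and 0.14. CDK2 lay between 3.62 and 3.95 on all arrays, and CDK3 was below the trp controls. Over the 14 genes the median difference was -0.021 in LPA+IFNt against control (0.041 with spike-in centring), 0.22 in LPA+IFNt against LPA and -0.16 in LPA against control. Without LPA replicate 3 the last of these was -0.079 and that against LPA was 0.074.

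**Figure D4:**
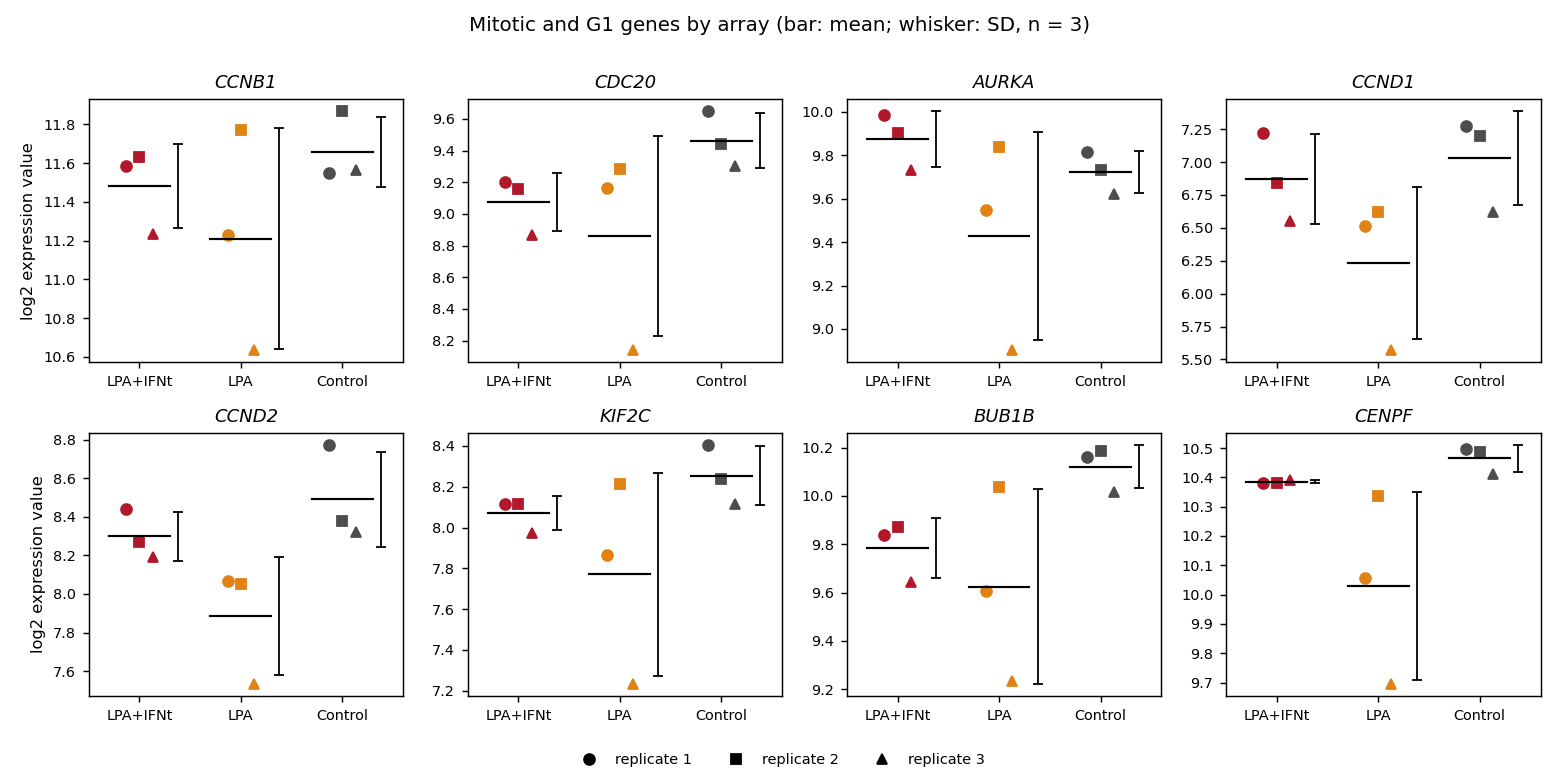
Log2 expression values (y axis, its range set for each gene) of 8 members of G1 and mitosis on the LPA+IFNt, LPA and control arrays. Circles, squares and triangles are replicates 1, 2 and 3, horizontal bars are means and whiskers are SD (n = 3). The triangle of LPA replicate 3 is the lowest point of all 8 panels, and the square of LPA replicate 2 lies near the control arrays for CCNB1, CDC20, AURKA, KIF2C and BUB1B.

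Of the 9 genes of the spindle checkpoint, mitotic kinases and APC/C, none passed in any of the 3 comparisons with all 9 arrays, with or without the block. CDC20, which activates the APC/C once chromosomes are attached, read 9.20, 9.16 and 8.86 on LPA+IFNt arrays, 9.16, 9.28 and 8.14 on LPA arrays and 9.65, 9.44 and 9.30 on control arrays. Every treated array lay below every control array. The difference from control was -0.39 in LPA+IFNt (SE 0.29, adjusted p = 0.53) and -0.60 in LPA (adjusted p = 0.66).

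AURKB, the kinase that corrects faulty attachments of chromosomes to the spindle, read 8.35, 8.34 and 8.35 on LPA+IFNt arrays, 8.40, 8.36 and 8.03 on LPA arrays and 8.77, 8.66 and 8.52 on control arrays. Again all 6 treated arrays were below all 3 control arrays. The difference from control was -0.30 in LPA+IFNt (SE 0.10, adjusted p = 0.18, and 0.036 without LPA replicate 3) and -0.38 in LPA (adjusted p = 0.31). BUB1B, a kinase-like checkpoint protein that binds CDC20, read 9.84, 9.87 and 9.64 on LPA+IFNt arrays, 9.61, 10.04 and 9.23 on LPA arrays and 10.16, 10.19 and 10.02 on control arrays. LPA+IFNt arrays were below the controls, by a mean difference of -0.34 (SE 0.18, adjusted p = 0.42), while LPA replicate 2 overlapped them.

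AURKA, the kinase of the spindle poles, had the opposite sign in LPA+IFNt. It read 9.99, 9.90 and 9.73 on LPA+IFNt arrays, 9.55, 9.84 and 8.90 on LPA arrays and 9.82, 9.73 and 9.62 on control arrays. The groups overlapped, and the differences were 0.15 from control (adjusted p = 0.71) and 0.45 from LPA (SE 0.21, adjusted p = 0.35). BUB1 and BUB3, the remaining checkpoint members, differed by -0.13 and -0.12 in LPA+IFNt against control. For CDC26, an APC/C subunit, the widest of the 3 differences was -0.114, in LPA+IFNt against LPA. Over the 9 genes the median difference was -0.13 in LPA+IFNt against control, 0.087 in LPA+IFNt against LPA (-0.052 without LPA replicate 3) and -0.25 in LPA against control (-0.077 without it).

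Among the 11 centromere and kinetochore members CENPX fell in LPA+IFNt against control. CENPX is a small histone-fold protein that works with CENPS and CENPT at centromeres and also in DNA repair. It read 8.11, 8.04 and 8.12 on LPA+IFNt arrays, 8.20, 8.17 and 8.26 on LPA arrays and 8.30, 8.22 and 8.35 on control arrays. The 3 LPA+IFNt arrays were the lowest of the 9, and LPA and control overlapped. The difference from control was -0.20 (SE 0.044, adjusted p = 0.044, and 0.010 with the replicate block), a 1.15-fold lower level. The call was kept under 3 of 15 alternative settings (adjusted p between 0.010 and 0.722) and, of the arrays left out in turn, only without control replicate 2. It was also lost with dim probe sets left out, spike-in centring, the intensity trend and a fit of only the 2 groups. Against LPA the difference was -0.12 (adjusted p = 0.21), which passed with the block (adjusted p = 0.046).

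CENPP and CENPO belong to 1 complex of the inner kinetochore. Their differences in LPA+IFNt against control had opposite signs, and both passed with the replicate block. CENPP read 6.82, 6.91 and 6.63 on LPA+IFNt arrays, 6.92, 6.92 and 6.66 on LPA arrays and 7.28, 7.09 and 7.01 on control arrays. All treated arrays lay below all control arrays, and the LPA+IFNt difference from control was -0.34 (SE 0.11, adjusted p = 0.15, and 0.023 with the block). CENPO read 4.66, 4.73 and 4.58 on LPA+IFNt arrays, 4.62, 4.78 and 4.58 on LPA arrays and 4.19, 4.60 and 4.15 on control arrays. It was the other way round, with a difference of 0.34 from control (SE 0.12, adjusted p = 0.19, and 0.043 with the block), although control replicate 2 overlapped the treated arrays.

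CENPT, which links the centromere to the microtubule-binding outer kinetochore, had the widest difference from control in this group. It read 6.53, 6.65 and 6.09 on LPA+IFNt arrays, 6.57, 6.60 and 5.91 on LPA arrays and 6.95, 6.87 and 6.89 on control arrays. No treated array reached the control arrays, and the differences were -0.48 in LPA+IFNt (SE 0.21, adjusted p = 0.30) and -0.55 in LPA (adjusted p = 0.53). CENPF, a large kinetochore protein that accumulates in G2, read 10.38, 10.38 and 10.39 on LPA+IFNt arrays, 10.06, 10.34 and 9.70 on LPA arrays and 10.50, 10.49 and 10.41 on control arrays. The 3 groups did not overlap in the order control, LPA+IFNt, LPA, yet no difference passed with all 9 arrays (LPA against control -0.43, SE 0.14, adjusted p = 0.43). The difference of LPA+IFNt from LPA was 0.36 (adjusted p = 0.23), and 0.51 without LPA replicate 2, which passed (adjusted p = 0.025).

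CENPN differed by 0.42 in LPA+IFNt against LPA (adjusted p = 0.26) and by -0.47 in LPA against control (adjusted p = 0.52). Its second probe set, with a mean of 8.69, differed by 0.15 and -0.016 in the same comparisons. CENPI differed by at most 0.13 in size. CENPA, the histone variant that marks centromeres, was below the trp controls, so its values carry no information on its level. Over the 11 genes the median difference was -0.080 in LPA+IFNt against control (-0.018 with spike-in centring), 0.040 in LPA+IFNt against LPA (-0.043 without LPA replicate 3) and -0.25 in LPA against control (-0.14 without it).

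The 7 mitotic kinesins, motors that move chromosomes and shape the spindle, had the most negative median of any role in LPA against control, -0.33, and none was called in any comparison with all 9 arrays. KIF2C, which removes tubulin from microtubule ends at kinetochores, read 8.12, 8.12 and 7.97 on LPA+IFNt arrays, 7.86, 8.22 and 7.23 on LPA arrays and 8.41, 8.24 and 8.12 on control arrays. LPA replicate 2 sat within the controls and replicate 3 was the lowest array by far. The difference of LPA from control was -0.48 (SE 0.22, adjusted p = 0.64), and that of LPA+IFNt from LPA 0.30 (adjusted p = 0.59).

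KIF20A and KIF23, which act when the cell divides in 2 at cytokinesis, differed by -0.37 and -0.33 in LPA against control, with adjusted p of 0.63 and 0.62. KIF23 differed by 0.25 in LPA+IFNt against LPA (adjusted p = 0.48), and by 0.43 without LPA replicate 2, which passed (adjusted p = 0.043). KIF2A, a relative of KIF2C, had the opposite sign, 0.15 (adjusted p = 0.73). Without LPA replicate 3 the median of the 7 was -0.16. The median was 0.17 in LPA+IFNt against LPA (0.030 without that array) and -0.078 in LPA+IFNt against control.

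Outside the cell cycle roles, KIF27 had the largest difference among the members called between 2 groups without the block. KIF27 is a ciliary kinesin, known in mice for a part in building motile cilia. It read 6.54, 6.56 and 6.74 on LPA+IFNt arrays, 5.99, 6.26 and 6.16 on LPA arrays and 6.07, 6.29 and 6.12 on control arrays. Every LPA+IFNt array was above all 6 others, which overlapped among themselves. The difference was 0.45 from control (SE 0.090, adjusted p = 0.029, and 0.020 with the block), 1.37-fold, and 0.48 from LPA (adjusted p = 0.021, and 0.016 with the block), 1.39-fold. Each of the calls was kept under 10 of 15 alternative settings. The call against control was lost without control replicate 1 or 3 or any LPA+IFNt replicate (adjusted p up to 0.108), and that against LPA without LPA replicate 1 or 3 or LPA+IFNt replicate 2 or 3 and in a fit of only those 2 groups (up to 0.067).

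The other transport and ciliary kinesins were flat or variable. KIF3A, a motor of transport within cilia, averaged 8.82 ± 0.47 on LPA+IFNt arrays, 8.62 ± 0.34 on LPA arrays and 9.21 ± 0.14 on control arrays (SD, n = 3 each), with a difference of -0.59 in LPA against control (adjusted p = 0.60). KIF5B, the ubiquitous heavy chain of conventional kinesin, had a group mean of 13.69 in LPA+IFNt, 13.76 in LPA and 13.77 in control. KIF5C had a difference of 0.30 in LPA+IFNt against control, but every one of its values was below the highest trp value. It passed without LPA+IFNt replicate 1 (adjusted p = 0.0015), as it did against LPA (adjusted p = 0.0013). Over the 9 genes the median difference was -0.076 in LPA+IFNt against control, 0.037 in LPA+IFNt against LPA and -0.017 in LPA against control (0.016 with spike-in centring).

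In the 12 genes of transcription and splicing, CDC40 rose in LPA+IFNt against control and CDK12 in LPA+IFNt against LPA. CDC40 is a splicing factor of the second catalytic step. It read 9.57, 9.54 and 9.54 on LPA+IFNt arrays, 9.46, 9.38 and 9.50 on LPA arrays and 9.22, 9.27 and 9.35 on control arrays. The groups were ordered LPA+IFNt, LPA, control without overlap. The difference from control was 0.28 (SE 0.043, adjusted p = 0.011, and 0.015 with the block), 1.21-fold, in LPA+IFNt, and 0.17 (adjusted p = 0.28) in LPA. This call was kept under 14 of 15 alternatives and lost with spike-in centring (adjusted p = 0.14). The second CDC40 probe set also rose in LPA+IFNt against control, by 0.46 (adjusted p = 0.035).

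CDK12, a kinase that phosphorylates the tail of RNA polymerase II, read 8.62, 8.76 and 8.78 on LPA+IFNt arrays, 8.34, 8.44 and 8.06 on LPA arrays and 8.74, 8.66 and 8.56 on control arrays. The LPA arrays were the lowest of the 9, and LPA+IFNt and control overlapped. The difference of LPA+IFNt from LPA was 0.44 (SE 0.099, adjusted p = 0.043, and 0.046 with the block), 1.36-fold. It was kept under 6 of 15 alternatives (adjusted p between 0.023 and 0.131) and, of the arrays left out in turn, only without LPA replicate 2, and lost in a fit of only the 2 groups. LPA against control gave -0.37 (adjusted p = 0.31).

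CCNL1, a cyclin tied to splicing, had a difference of 0.18 in LPA against control (SE 0.041, adjusted p = 0.23), with all LPA arrays above all control arrays. CCNL2, its paralogue, had -0.24 in LPA+IFNt against control (adjusted p = 0.27). CDK7, which activates other CDKs and acts in transcription, had 0.34 in LPA+IFNt against LPA (adjusted p = 0.20). Its second probe set, with a mean of 5.28, had -0.050 in that comparison. The medians of the 12 genes were 0.037 in LPA+IFNt against control, -0.028 in LPA+IFNt against LPA and 0.022 in LPA against control.

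Among the 16 genes with other functions CDC37 rose in LPA+IFNt against LPA. CDC37 is the co-chaperone that delivers protein kinases to HSP90. It read 7.92, 7.74 and 8.004 on LPA+IFNt arrays, 7.58, 7.60 and 7.44 on LPA arrays and 7.86, 7.86 and 7.74 on control arrays. As with CDK12, the LPA arrays were the lowest and the others overlapped. The difference was 0.35 (SE 0.077, adjusted p = 0.040), 1.27-fold, and it did not pass with the replicate block (adjusted p = 0.065). It was kept under 5 of 15 alternatives, with adjusted p up to 0.121, and of the arrays left out in turn only without LPA replicate 2 or LPA+IFNt replicate 2. The intensity trend and a fit of only the 2 groups also lost it. LPA against control gave -0.28 (adjusted p = 0.34).

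CDK16, a kinase of the PCTAIRE family, passed the test over the 3 groups (adjusted p = 0.043) and missed it with the block (adjusted p = 0.051). It read 4.91, 4.91 and 4.98 on LPA+IFNt arrays, 4.70, 4.58 and 4.60 on LPA arrays and 5.46, 5.33 and 4.96 on control arrays. LPA arrays were the lowest, by -0.62 from control (SE 0.11, adjusted p = 0.13). Control replicate 3 stood below the other controls, and without it that difference was called at an adjusted p of 0.022. CDK5 had the most negative difference of all members in LPA+IFNt against control, -0.56 (SE 0.23, adjusted p = 0.26), with controls spread over 0.41 (SD). AURKAIP1, which binds AURKA, and CDK2AP2, a relative of an inhibitor of CDK2, were lower in LPA+IFNt against control with the replicate block, by -0.26 (adjusted p = 0.038) and -0.17 (adjusted p = 0.045). Without the block neither passed (adjusted p = 0.38 and 0.24), and CDK2AP2 was singled out after its values were seen.

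Genes of the same processes outside the members were taken from lists by known function. In mitosis 33 of 51 listed genes were measured. In LPA against control 32 of the 33 were below 0, with a median of -0.27 (-0.12 without LPA replicate 3), and 0 passed. At unadjusted p under 0.05, 10 were lower, where 3.86% of all probe sets were. On average over the list, arrays deviated by 0.035, 0.077 and -0.087 on LPA+IFNt replicates 1, 2 and 3, by -0.11, 0.066 and -0.38 on LPA replicates and by 0.14, 0.19 and 0.071 on control replicates. The same array was lowest here as in the members.

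LMNB1, a lamin of the nuclear envelope, averaged 8.24 on LPA+IFNt arrays, 7.65 on LPA arrays and 8.56 on control arrays. It rose in LPA+IFNt against LPA by 0.59 (adjusted p = 0.036), where 2.56% of all probe sets were called higher. In LPA against control its difference was -0.91 (SE 0.13, adjusted p = 0.071), which passed with the replicate block (adjusted p = 0.019), as did -0.32 in LPA+IFNt against control (adjusted p = 0.26, and 0.021 with the block). STMN1, a protein that takes microtubules apart, fell in LPA+IFNt against control by 0.43 (adjusted p = 0.0036), where 2.86% of all probe sets were called lower. PLK1, a kinase of mitotic entry, differed by -0.63 in LPA against control (adjusted p = 0.47). With the block 1 of the 33 was lower in LPA against control, where 0.0458% of all probe sets passed. With it 3 were lower in LPA+IFNt against control, where 5.44% of all probe sets were. In LPA+IFNt against LPA 2 were higher and 1 lower with the block, where 3.38% and 6.28% of all probe sets were. NDC80 in LPA+IFNt against control (adjusted p = 0.24, and 0.032 with the block), and ECT2 (0.29, and 0.042) and CDCA7 (0.505, and 0.049) in LPA+IFNt against LPA, passed with it alone and were singled out after their values were seen.

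In DNA synthesis 30 of 36 listed genes outside the members were measured. RPA1, which coats single-stranded DNA, fell in LPA+IFNt against control by 0.15 (adjusted p = 0.044), where 2.86% of all probe sets were called lower. POLD3, a subunit of DNA polymerase delta, rose in LPA+IFNt against LPA by 0.26 (adjusted p = 0.048, and 0.059 with the block). There 2.56% of all probe sets were called higher. PCNA, the sliding clamp, differed by -0.075 in LPA+IFNt against control (adjusted p = 0.28). In LPA against control 0 of 30 passed and 26 were below 0. At unadjusted p under 0.05, 3 were lower, where 3.86% of all probe sets were. With the block 2 of the 30 were lower in LPA+IFNt against control, where 5.44% of all probe sets were. With it 1 was higher in LPA+IFNt against LPA, where 3.38% of all probe sets were. UHRF1 in LPA+IFNt against control (adjusted p = 0.056, and 0.0089 with the block) and CDT1 in LPA+IFNt against LPA (0.60, and 0.021) passed with it alone and were likewise singled out. Of 24 further regulators 12 were measured and 0 passed in any comparison without the block. With it RB1 was lower in both comparisons of LPA+IFNt (adjusted p = 0.031 against control and 0.043 against LPA). CHEK1 was higher with it in LPA+IFNt against LPA (adjusted p = 0.033), and both were singled out in the same way. Over all probe sets the block called 5.44% lower against control, and 6.28% lower and 3.38% higher against LPA. E2F1, a transcription factor of the G1/S step, had a mean between 2.08 and 2.22 in each group, below the highest trp value.

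Among the CDK inhibitors, which hold back cyclin-CDK complexes, 2 fell under LPA+IFNt against control, where 2.86% of all probe sets were called lower. Of 8 listed 4 were measured. CDKN1C, the inhibitor p57, averaged 5.98 on LPA+IFNt arrays, 7.42 on LPA arrays and 7.41 on control arrays. It fell by 1.43 in LPA+IFNt against control (SE 0.18, adjusted p = 0.0036) and fell by 1.45 against LPA (adjusted p = 0.0033). CDKN2C, an inhibitor of CDK4, fell in LPA+IFNt against control by 0.51 (adjusted p = 0.027), and its difference of -0.41 from LPA passed with the block alone (adjusted p = 0.059, and 0.041 with it). CDKN1A, the inhibitor p21, differed by -0.099 in LPA+IFNt against control (adjusted p = 0.60).

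Some markers of cell types were called as well. Of 13 stromal markers 3 (COL1A1, COL3A1 and FBN1) fell in LPA+IFNt against control, where 2.86% of all probe sets were called lower, and 5, with COL1A2 and THY1, in LPA+IFNt against LPA, where 3.98% were. With the block COL1A2 did not pass (adjusted p = 0.061). Their mean level was 10.88 to 10.92 on LPA+IFNt arrays, 11.16 to 11.32 on LPA arrays and 11.03 to 11.15 on control arrays, and LPA replicate 3 had the highest of the 9. Of 8 smooth muscle and pericyte markers 1 (MYLK) fell in LPA+IFNt against control, where 2.86% of all probe sets were called lower. In LPA+IFNt against LPA 2 fell, with ACTA2 (4 with the block), where 3.98% of all probe sets did (6.28% with the block). These markers averaged 6.73 to 6.88 on LPA+IFNt arrays, 7.15 to 7.36 on LPA arrays and 6.94 to 7.16 on control arrays.

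Of 14 epithelial markers CDH1 rose in LPA+IFNt against control, where 2.48% of all probe sets were called higher. SPINT2 fell in LPA+IFNt against LPA, where 3.98% were called lower. With the block 2 were higher in each comparison, where 3.24% of all probe sets were against control and 3.38% against LPA. The epithelial markers averaged 10.25 to 10.39 on LPA+IFNt arrays, 10.25 to 10.33 on LPA arrays and 10.25 to 10.38 on control arrays. Of 14 leukocyte markers CD53 rose in both comparisons of LPA+IFNt, where 2.48% of all probe sets were called higher against control and 2.56% against LPA. With the block CD14 was lower in both (adjusted p = 0.036 against control and 0.027 against LPA), where 5.44% and 6.28% of all probe sets were. The mean level of the 14 was 3.13 to 3.27 on LPA+IFNt arrays, 3.14 to 3.31 on LPA arrays and 3.07 to 3.15 on control arrays. The T cell genes CD3E, CD3D and CD2 averaged between 2.36 and 2.82 in every group, near the highest trp value. The part of these markers in the members' differences was not tested.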

How the data were processed

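RNA of 9 samples (3 per group) was amplified from 100 ng with the 3' IVT Express kit and hybridised to 1 array each, per the labels' protocols. The deposited log2 expression values are those the authors made in Partek by RMA, as the submitters' processing notes list them. Software versions were not given in the sources used here. Base 2 is assumed, as RMA usually returns it and the values span that range. RMA gives the arrays alike distributions, so a shift of most transcripts would be hidden. No genome build is named, so no coordinates or sequences are given.

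Of 24128 probe sets, 112 Affymetrix controls were set aside and 24016 entered the tests. The platform annotation gave the gene names: 13292 probe sets had 1 symbol (9155 genes), 86 several and 10638 none, and 13263 of the named ones were found by gene identifier in the RefSeq table of ARS-UCD2.0, which changed 0 symbols. The symbol rule took 126 probe sets. It left out 10 probe sets of 8 CDC42 genes.

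The two-sided test was limma's (version 3.58.1, R 4.3.3, lmFit then eBayes), fitted to all 9 arrays with no covariate, adjusted by Benjamini-Hochberg over the 24016 probe sets at a threshold of 0.05. The scripts were tested on simulated data. The labels number the replicates 1 to 3 in each group. Whether the numbers pair the samples was taken from the data: deviations from group means correlated at 0.19 to 0.491 in all 9 same-numbered pairs of samples, and at -0.468 to 0.141 in the 18 other pairs, so the fit with the replicate number as a block is given where it changes a call. Since pools share cows, p-values measure the spread between these pools. The number of arrays limits the precision.

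Members named were those called in any comparison, the 6 highest and 6 lowest in each, the widest and narrowest in each role, and a list of well-known genes. The members and lists were chosen with earlier results of these data known. Alternatives were the replicate block, each array left out, probe sets of a gene averaged, dim probe sets left out, centring on spike-in controls, an intensity trend with robust estimation, and fits of only the 2 groups compared.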

Additional observations from a re-analysis of the deposited data

How the results depend on the processing

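With the replicate block, the members called were 8 in LPA+IFNt against control (4 without it), 6 in LPA+IFNt against LPA (3) and 8 in the test over the 3 groups (3), and it changed no count in LPA against control (0). Centring on spike-in controls left 1 member called in LPA+IFNt against control and gave a median of 0.0016 there. It also moved the share of calls that were higher, over all probe sets, to 60.6% in LPA+IFNt against control, against 46.4% without it, and to 50% in LPA against control, against 70.6%. A fit of only the 2 groups called 1 member in LPA+IFNt against LPA. Leaving out each array in turn gave 0 to 1 members called in LPA against control, 1 to 4 in LPA+IFNt against control, 0 to 8 in LPA+IFNt against LPA and 0 to 9 in the test over the 3 groups. The 8 and the 9 came without LPA replicate 2, the 1 in LPA against control (CDK16) without control replicate 3. The shares of all probe sets called in those runs are not given here, so these counts are not read as results about the members. Medians ranged from -0.12 to -0.053, from -0.090 to -0.043 and from -0.00064 to 0.067 in the same order of comparisons, and the last changed sign without LPA replicate 3. The causes were not tested. Averaging probe sets, leaving out dim ones, and the intensity trend kept every count of members called within 1.5 times. No difference of a named member that was called turned its sign in any alternative run.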

Other observations

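CDK5R1, an activator of CDK5 known for its part in neurons, was named by 4 probe sets. Of these, 3 averaged 14.14, 14.72 and 15.35, and the fourth averaged 4.91. Only 3 probe sets on the array had a mean above that of the brightest, which lay between 15.28 and 15.40 on all 9 arrays. The name comes from the platform annotation and was not checked against a sequence here, and whether the bright values are those of CDK5R1 was not tested.

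The second MCM6 probe set differed by 0.46 in LPA against control (adjusted p = 0.082), where the brighter one differed by 0.022.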
